A study of Mus musculus with 9 samples.

Results

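The genes described here are the Nduf genes, which encode subunits of respiratory complex I, measured in podocytes of diabetic and normal mice. Members were all genes whose platform symbol begins with Nduf followed by a, b, c, s or v, without the assembly factors of the Ndufaf series. The family was chosen with earlier results of these data known, while the rule itself used symbols alone, with no measured value. Of the 18193 genes measured, 36 met the rule. Each was read from its brightest probe set among those annotated to a single symbol. Ndufs6 and Ndufa11 were not analysed as single genes, since their probe sets are annotated to several symbols.

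Podocytes are the epithelial cells whose foot processes wrap the glomerular capillaries. Diabetic podocytes came from OVE26 mice, a transgenic line with early-onset type 1 diabetes caused by calmodulin overexpression in pancreatic beta cells, crossed to a line with eGFP in podocytes (genotype label OVE-GFP, strain background FVB, 5 mice). The normal group was 4 mice labelled wild type on the same FVB background, and the labels do not state whether these carried the eGFP transgene. All mice were 3 to 4 months old, and fluorescent podocytes were sorted by flow cytometry from trypsin-dispersed glomeruli. RNA of each sort was amplified and hybridised to 1 array, which gave 9 arrays from 9 mice by their labels. Values are log2 probe set intensities, and every difference is the OVE26 mean minus the FVB mean on that scale.

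Complex I (NADH:ubiquinone oxidoreductase) is the largest enzyme of the mitochondrial respiratory chain. It takes electrons from NADH through a flavin and a chain of iron-sulfur clusters to ubiquinone, and pumps protons across the inner membrane. Its peripheral arm holds the N module, where NADH is oxidised, and the Q module, where ubiquinone is reduced, and its membrane arm is built around subunits encoded in mitochondrial DNA, after which the ND1, ND2, ND4 and ND5 modules are named. Core subunits carry out catalysis, and accessory subunits surround them and are needed for assembly or stability. Ndufa4 keeps its old name although its protein is now assigned to cytochrome c oxidase, and Ndufa4l2 encodes a related protein known as a target of hypoxia-inducible factor.

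The sorts held podocyte RNA. Nphs1 (nephrin) stood at 11.40 ± 0.29 (SD, n = 5) on OVE26 arrays, against 11.90 ± 0.23 (SD, n = 4) on FVB arrays. Podxl was at 12.99 against 13.10 and Synpo at 12.89 against 13.03. For both, every OVE26 array lay below every FVB array. Array medians lay between 5.07 and 5.15. Xist lay above the Y-linked genes on 3 OVE26 arrays (2, 3 and 5) and 1 FVB array (2), so sex, as this signal marks it, was not balanced between the groups. In bulk sorts a gene's level cannot separate fewer cells of a type from less RNA per cell.

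Nduf genes were a little higher in the OVE26 sorts almost throughout, and no member passed the test singly. Of 36 members, 34 had a difference above 0, against 52.6% of all genes, and 2 lay below it (Ndufb4 and, by -0.00029, Ndufs1). The median difference was 0.18, against 0.01 over all genes, and single members ran from -0.26 to 0.49. By limma 0 of 36 members were called at an adjusted p under 0.05 in either direction, where 0.473% of all genes were called higher and 0.132% lower. The smallest adjusted p among members was 0.117. At an unadjusted p under 0.05, 10 members were higher and 0 lower, against 9.03% and 6.07% of all genes. In 10 members every OVE26 array lay above every FVB array, against 3.64% of all genes, and in 0 every OVE26 array lay below, against 2.62%.

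These shares were also set beside those of bright genes, since most members are bright. Among the 4395 genes with a mean of at least 8, 44.5% had a difference above 0, 10.2% were higher at an unadjusted p under 0.05, and in 5.37% the OVE26 arrays all lay above. On the other side 11.8% were lower at an unadjusted p under 0.05 and in 6.51% the OVE26 arrays all lay below, and limma called 0.455% higher and 0.228% lower. Of the 32 members in that range, 31 had a difference above 0, 10 were higher at an unadjusted p under 0.05 and 10 did not overlap between groups. Cytosolic ribosomal protein genes, another family of abundant short messages, gave a like picture: 34 of 38 had a difference above 0, with a median of 0.17, 8 higher at an unadjusted p under 0.05 and 7 with no overlap. When arrays were centred on those ribosomal genes the median of all genes shifted to -0.13, the members' median was 0.04, 21 of 36 differences stayed above 0 (28.4% of all genes) and 1 member had no overlap, with OVE26 higher (1.56% of all genes). That centring also moved limma's calls among all genes from 86 higher and 24 lower to 55 and 48.

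**Figure D1:**
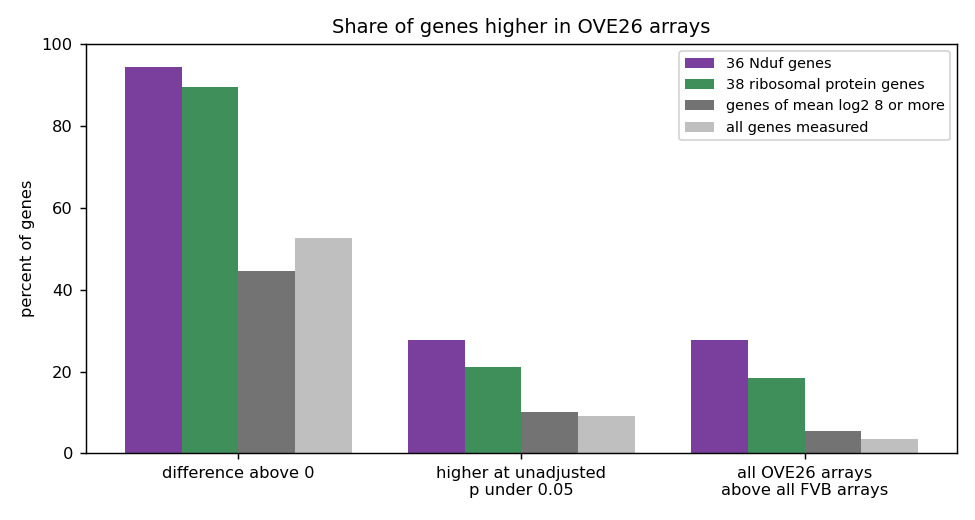
Percent of genes (vertical axis) with a difference above 0, with a higher OVE26 mean at an unadjusted p under 0.05, and with all OVE26 arrays above all FVB arrays, for the 36 Nduf genes, 38 ribosomal protein genes, genes with a mean log2 intensity of at least 8, and all 18193 genes. The Nduf bars stand at 94.4%, 27.8% and 27.8%, the ribosomal bars at 89.5%, 21.1% and 18.4%. With arrays centred on the ribosomal genes, which the plot does not show, 21 of 36 Nduf differences were above 0, against 28.4% of all genes.

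**Figure D2:**
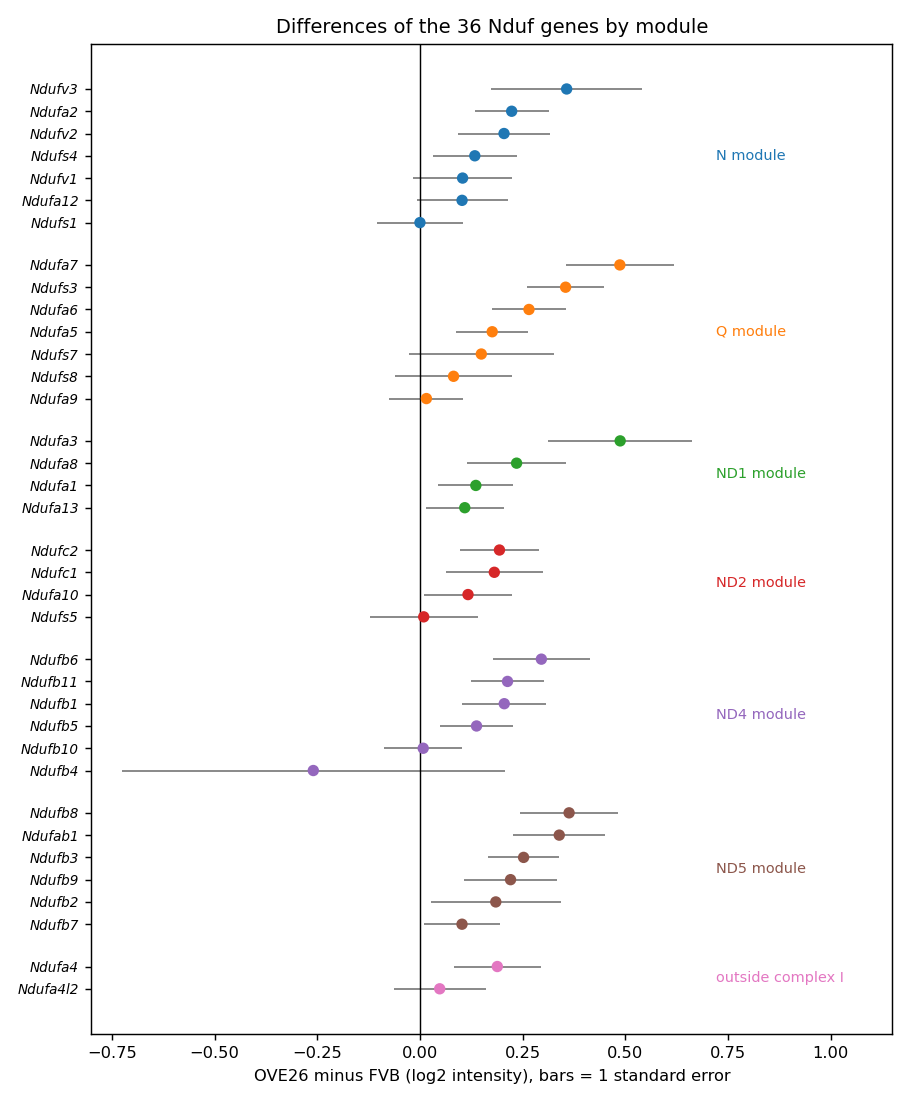
Difference of each of the 36 Nduf genes (horizontal axis, OVE26 minus FVB, log2 intensity), with bars of 1 standard error, grouped by the module of the encoded subunit. Points lie to the right of 0 in every module apart from Ndufb4 and Ndufs1; under centring on ribosomal protein genes 15 differences lie at or below 0.

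In the Q module, the part of the peripheral arm that hands electrons to ubiquinone, 7 genes were measured, all with differences above 0 (median 0.18, 3 at an unadjusted p under 0.05). Ndufs3, a core subunit and an early scaffold of assembly, stood at 9.24, 9.31, 9.30, 9.42 and 9.44 on OVE26 arrays 1 to 5 and at 8.98, 8.99, 8.89 and 9.09 on FVB arrays 1 to 4. All OVE26 arrays lay above all FVB arrays, and the spread within each group was narrower than the gap between their means. The difference was 0.35 (SE 0.09, 1.28-fold; limma, adjusted p = 0.117). Ndufa7, an accessory subunit of this arm, was at 8.86, 8.74, 8.65, 8.88 and 9.06 against 8.06, 8.57, 8.35 and 8.43, again with no overlap. Here FVB 1 was the lowest array and the difference was 0.49 (SE 0.13, 1.40-fold; limma, adjusted p = 0.120), with all 5 probe sets of the gene higher in OVE26. Ndufa6, an LYR-motif protein that binds the mitochondrial acyl carrier protein, was at 9.73, 9.79, 9.61, 9.64 and 9.60 against 9.32, 9.42, 9.48 and 9.42. Its groups did not overlap, at a difference of 0.27 (SE 0.09, adjusted p = 0.204 by limma).

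Ndufa5, an accessory subunit of the same module, had the narrowest gap of the members without overlap there. It was at 12.45, 12.39, 12.36, 12.28 and 12.27 on OVE26 arrays, against 12.24, 12.17, 12.15 and 12.14, a difference of 0.18 (SE 0.09, adjusted p = 0.391). The lowest OVE26 array lay only just above FVB 1. The remaining Q module genes overlapped between groups. Ndufs7 and Ndufs8, core subunits that hold iron-sulfur clusters near the quinone site, differed by 0.15 (SE 0.18) and 0.08 (SE 0.14). Ndufa9, an accessory subunit at the joint of the arms, differed by 0.015, with a 95% interval from -0.19 to 0.22.

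In the N module, which oxidises NADH, 6 of 7 measured genes had differences above 0 (median 0.13), and 1 had an unadjusted p under 0.05. That was Ndufa2, an accessory subunit with a thioredoxin-like fold, at 11.58, 11.67, 11.59, 11.49 and 11.49 on OVE26 arrays, against 11.38, 11.35, 11.24 and 11.40. Its groups did not overlap (difference 0.22, SE 0.09; limma, adjusted p = 0.278). Of the core subunits of the module, Ndufv2, which holds an iron-sulfur cluster, differed by 0.20 (SE 0.11) and Ndufv1, which binds NADH and the flavin, by 0.10 (SE 0.12). Ndufs1, the largest core subunit and carrier of several iron-sulfur clusters, was at 8.73 in both groups, and the 95% interval of its difference ran from -0.24 to 0.24. Ndufv3, an accessory subunit, differed by 0.36 (SE 0.18, adjusted p = 0.408), with OVE26 2 at 11.05 far above the rest of its group. Ndufs4, whose loss causes Leigh-like disease in mice, differed by 0.13 and Ndufa12 by 0.10, and both overlapped between groups.

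Taken by role, the 6 core subunits measured had a median difference of 0.13 and the 28 accessory subunits one of 0.19. Of the 6 core genes 1 had no overlap, and of the 28 accessory genes 9 had none, all with OVE26 higher (3.64% of all genes). These subsets differ in size and were not tested against each other.

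The other 5 members without overlap were in the membrane arm. In the ND5 module, at the far end of the arm, all 6 genes had differences above 0 (median 0.24). Ndufb8, an accessory subunit often used as a marker of assembled complex I, was at 10.24, 10.56, 10.29, 10.32 and 10.15 against 9.86, 10.16, 9.79 and 9.996. OVE26 5 and FVB 2 met at the edge, so the groups overlapped (difference 0.36, SE 0.12; limma, adjusted p = 0.190). Ndufab1, the mitochondrial acyl carrier protein, was at 9.47, 9.44, 9.50, 9.49 and 9.73 against 9.08, 9.06, 9.18 and 9.42 (difference 0.34, SE 0.11, adjusted p = 0.192 by limma). Without overlap, FVB 4 nonetheless came within the SD of the OVE26 arrays. The next-brightest probe set of Ndufab1 (mean 7.34) differed by 0.58, while 3 still dimmer ones out of 5 ran the other way, from -0.02 to -0.36. Ndufb3, a small accessory membrane subunit, was at 10.66, 10.74, 10.65, 10.54 and 10.68 against 10.37, 10.43, 10.38 and 10.42, with a difference of 0.25 (SE 0.09, adjusted p = 0.205). Its FVB arrays were packed within a narrow band below every OVE26 array. Ndufb9 differed by 0.22, Ndufb2 by 0.18 and Ndufb7 by 0.10, and all 3 overlapped. A second bright probe set differed by 0.46 in Ndufb7 (mean 9.17) and by 0.32 in Ndufb9 (mean 10.66). A dim probe set of Ndufb9 (mean 3.63) differed by -0.34, and the dimmer ones of Ndufb2 by 0.16 and -0.09.

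In the ND4 module 5 of 6 genes had differences above 0 (median 0.17). Ndufb6 was at 10.49, 10.90, 10.64, 10.65 and 10.49 against 10.30, 10.54, 10.24 and 10.29, where FVB 2 reached into the OVE26 range (difference 0.30, SE 0.12; limma, adjusted p = 0.272). Ndufb11, an X-linked accessory subunit, was at 11.58, 11.71, 11.61, 11.57 and 11.72 against 11.41, 11.33, 11.45 and 11.51, with no overlap (difference 0.21, SE 0.09, adjusted p = 0.301). Ndufb5 was at 11.28, 11.36, 11.29, 11.23 and 11.24 against 11.17, 11.22, 11.02 and 11.17. Its groups were narrowly apart, at a difference of 0.14 (SE 0.09, adjusted p = 0.521). Ndufb10 differed by 0.0076, with a 95% interval from -0.20 to 0.22, and Ndufb1 by 0.20 at a dim level of 5.25 in FVB. Ndufb4 was the most variable member in both groups, at 4.91, 2.13, 3.05, 3.14 and 2.93 against 3.30, 4.05, 3.10 and 3.52, near the 25th percentile of array values (3.31), and its difference of -0.26 had a standard error of 0.47.

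The ND1 module, at the foot of the membrane arm, gave 4 differences above 0 out of 4 (median 0.19). Ndufa3, a small membrane subunit, was at 9.99, 10.07, 10.05, 10.27 and 10.61 against 9.37, 9.82, 9.57 and 10.09, a difference of 0.49 (SE 0.18, 1.40-fold; limma, adjusted p = 0.223). It had the largest difference of all members and a wide spread, with FVB 4 inside the OVE26 range. Ndufa8, which lies on the intermembrane side, was at 9.24, 9.72, 9.44, 9.23 and 9.29 against 9.12, 9.23, 9.08 and 9.17. The groups were apart only because OVE26 4 lay minimally above FVB 2, and the difference was 0.23 (SE 0.12, adjusted p = 0.403). Ndufa1, X-linked and needed for assembly of the membrane arm, differed by 0.14, and Ndufa13, also known as the cell-death regulator GRIM-19, by 0.11. In the ND2 module, 4 of 4 differences were above 0 (median 0.15) and in 0 genes were the groups apart. Ndufc2 differed by 0.19 (SE 0.10), Ndufc1 by 0.18 (SE 0.12), Ndufa10 by 0.12 (SE 0.11) and Ndufs5 by 0.0089 (SE 0.13).

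Of the genes whose proteins lie outside complex I, Ndufa4 was at 11.19, 11.23, 11.23, 11.32 and 11.35 against 10.84, 11.16, 11.07 and 11.24, a difference of 0.19 (SE 0.11; limma, adjusted p = 0.445). FVB 4 lay inside the OVE26 range. Ndufa4l2 was at 5.67, 5.80, 5.67, 5.67 and 5.61 against 5.67, 5.84, 5.36 and 5.67, and its OVE26 arrays lay within the FVB range. It differed by 0.05 (SE 0.11, adjusted p = 0.90). Without both genes the median over the other 34 members was 0.18.

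**Figure D3:**
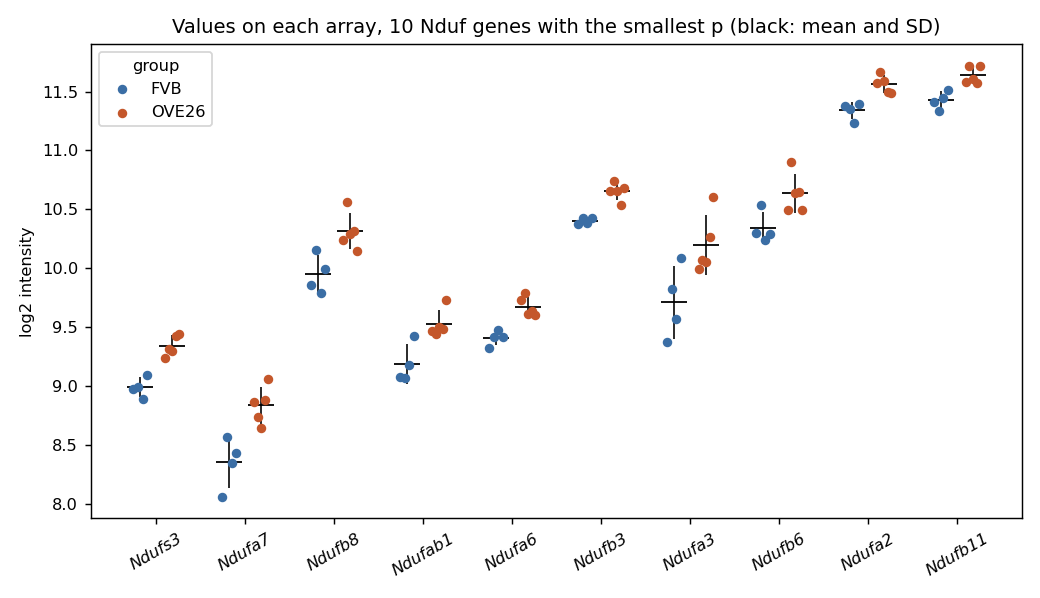
Log2 intensity (vertical axis) on each array for the 10 Nduf genes with the smallest p, FVB arrays in blue and OVE26 arrays in orange, with the group mean and SD in black. In Ndufs3, Ndufa7, Ndufab1, Ndufa6, Ndufb3, Ndufa2 and Ndufb11 every OVE26 point lies above every FVB point, while Ndufb8, Ndufa3 and Ndufb6 overlap.

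The median of the members varied from array to array, within groups as well as between them. With each gene centred over the 9 arrays, the median over the 36 members was 0.08, 0.16, 0.07, 0.0095 and 0.04 on OVE26 arrays 1 to 5 and -0.15, -0.0085, -0.17 and -0.06 on FVB arrays 1 to 4. OVE26 2 was the highest array and FVB 1 and FVB 3 the lowest, while OVE26 4 and FVB 2 nearly met. FVB 3 held the lowest value of 13 members and FVB 1 that of 11, and OVE26 2 held the highest value of 16 and OVE26 5 that of 10. On FVB 2, 31 of 36 members lay above their FVB mean, the same number as on OVE26 arrays 1, 2 and 3. Leaving out FVB 2 raised the members without overlap from 10 to 16 (from 3.64% to 6.63% of all genes). Leaving out FVB 3 lowered the members higher at an unadjusted p under 0.05 from 10 to 6 (from 9.03% to 7.33% of all genes).

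**Figure D4:**
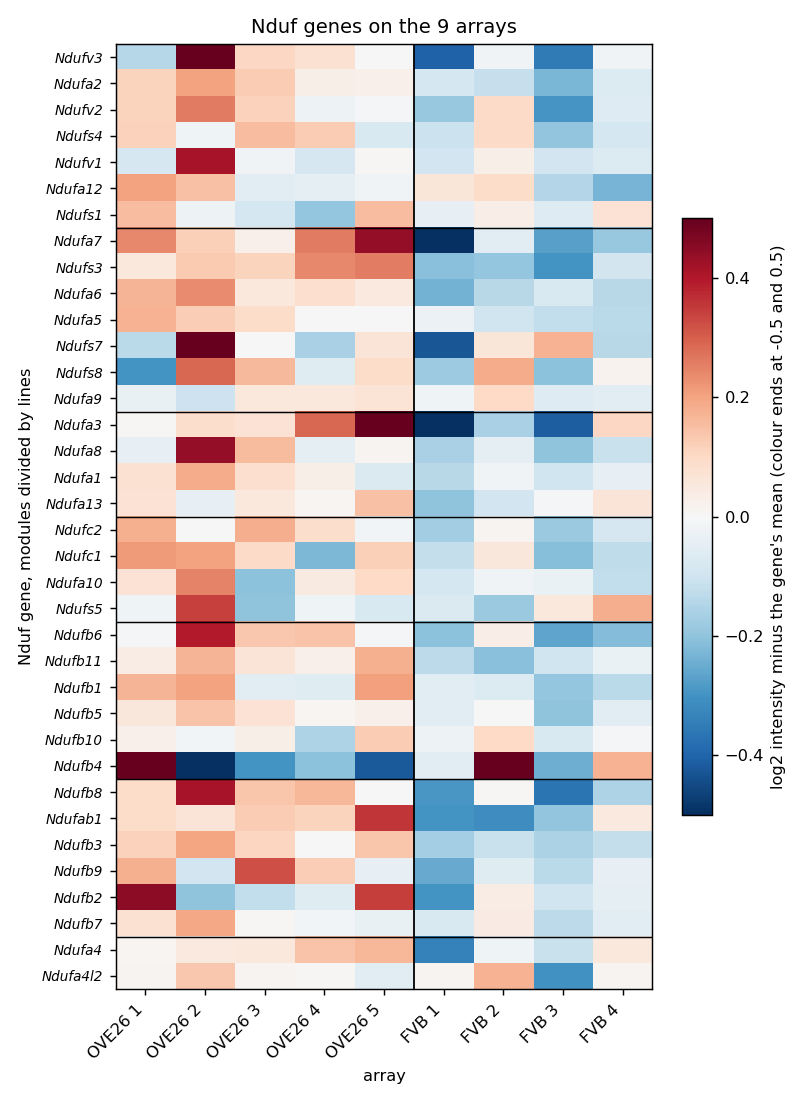
Heat map of the 36 Nduf genes (rows, divided by module) on the 9 arrays (columns, OVE26 left of the line), coloured by log2 intensity minus the gene's mean, with colours ending at -0.5 and 0.5. FVB 1 and FVB 3 are blue in most rows and OVE26 2 is red in most, and Ndufb4 is mixed, with OVE26 1 its highest array and OVE26 2 its lowest.

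Second probe sets gave the same direction where they were bright. Members had 78 probe sets of a single symbol, of which 42 were not used above. Of these 42, 32 had a difference above 0, and of the 22 with a mean of at least 8, all 22 did (median 0.22). They target the same transcripts on the same arrays, so they repeat the measurement rather than add mice. Of 20 genes with several probe sets, 13 had all of them higher in OVE26.

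Some subunits were also read by probe sets that match more than 1 gene, and these cannot be assigned to the subunit alone. The probe set shared by Ndufs6 and Ndufs6b, of which the former encodes a zinc-binding N module subunit, was at 10.63, 10.78, 10.61, 10.67 and 10.82 on OVE26 arrays, against 10.43, 10.43, 10.45 and 10.49 on FVB arrays, with no overlap (difference 0.25, SE 0.09; limma over all probe sets, adjusted p = 0.274). A probe set shared by Ndufa11 and Ndufa11b was at 9.04, 9.66, 8.98, 9.21 and 9.24 against 8.04, 8.56, 8.49 and 8.78. That difference of 0.76 (SE 0.18, adjusted p = 0.122) was larger than that of any single-symbol member, while the other, dim probe set of this pair differed by 0.02. For Ndufb4, the bright probe sets shared with its copies Ndufb4b and Ndufb4c differed by 0.14 and 0.19, against -0.26 at the dim single-symbol probe set. The bright probe set shared by Ndufs5 and its pseudogene differed by -0.06.

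Because the members lay higher together, their start sites were searched for the letters of sites bound by regulators known for mitochondrial genes. RefSeq windows (GRCm38.p6) of 300 bases, from 250 before to 50 after the start, were found for 32 members. The letters AAGATGGC, part of the YY1 site, stood in 6 of these 32 (18.8%), against 3.19% of 27025 genes with a window. CGCATGCG (core of the NRF1 site) stood in 1 of 32 (3.12%, against 2.07%), CCGGAAGT (ETS factors such as GABP) in 1 of 32 (3.12%, against 4.31%) and TCAAGGTCA (oestrogen-related receptors) in 0 of 32 (against 0.466%). Both strands were read, and a match is only a match of letters.

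The matches are shown because the YY1 letters recur at nearly the same place in each gene, with the matched letters in capitals, each line read 5′ to 3′ along the gene's strand:
Ndufa3 (chr7:3617384-3617413, plus strand): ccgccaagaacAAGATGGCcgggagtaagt
Ndufa9 (chr6:126849097-126849126, minus strand): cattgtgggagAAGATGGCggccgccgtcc
Ndufb8 (chr19:44555393-44555415, minus strand): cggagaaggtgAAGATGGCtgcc
Ndufc1 (chr3:51408915-51408944, minus strand): gcctgcggaacAAGATGGCgccgtccgtag
Ndufs4 (chr13:114388045-114388070, minus strand): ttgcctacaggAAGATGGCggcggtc
Ndufs7 (chr10:80249462-80249491, plus strand): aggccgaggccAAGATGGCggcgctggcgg
Ndufs3, ETS letters on the opposite strand (chr2:90904703-90904732, minus strand): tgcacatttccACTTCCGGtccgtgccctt
Ndufa8, NRF1 letters (chr2:36049329-36049358, minus strand): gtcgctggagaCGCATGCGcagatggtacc

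All 6 YY1 matches lie on the gene's own strand and begin 23 to 39 bases after the start site. Their letters include ATG, the letters of a start codon, and whether translation begins there was not examined. The differences of the 6 genes ran from 0.015 for Ndufa9 and 0.13 for Ndufs4 over 0.15 for Ndufs7 and 0.18 for Ndufc1 to 0.36 for Ndufb8 and 0.49 for Ndufa3. Ndufs3 holds the ETS letters from the first base of its transcript, and Ndufa8 holds the NRF1 letters 9 bases before its start. Whether any of these letters go with the size of a gene's difference was not tested.

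Genes that serve the same chain were read next to the members. Of 18 complex I assembly factors measured, 0 were called in either direction by limma, and their median difference was 0.12. At an unadjusted p under 0.05, 0 were higher and 2 lower, against 9.03% and 6.07% of all genes. The factors with the smallest p were Ndufaf1, which helps build the membrane arm, at -0.44 (SE 0.15, adjusted p = 0.213), its partner Acad9 at -0.26 (SE 0.11, adjusted p = 0.297) and Dmac2 at 0.34 (SE 0.17, adjusted p = 0.392). Of 36 subunits of complexes II to V, 33 had a difference above 0 (median 0.26). Here 18 were higher at an unadjusted p under 0.05 (9.03% of all genes) and 11 had no overlap, with OVE26 higher (3.64% of all genes). Both counts were above the 10 and 10 of the members. By limma 35 were not called and 1 was called higher. That gene was Uqcr10 of complex III (0.80, SE 0.14, adjusted p = 0.0450), followed by Uqcr11 of the same complex (0.55, adjusted p = 0.0828) and Sdhb of complex II (0.38, adjusted p = 0.124). Leaving out 1 array at a time, Uqcr10 passed 2 times in 9 (adjusted p from 0.0467 to 0.143).

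Of 8 genes for other entries of electrons to ubiquinone, 0 were called, with a median of 0.11, and the smallest p was that of Prodh, proline dehydrogenase (0.83, SE 0.25, adjusted p = 0.157). Etfb, of the electron transfer flavoprotein, differed by 0.29 (adjusted p = 0.358) and Prodh2 by 0.28 (adjusted p = 0.365). Of 9 mitochondrial proteases 0 were called, with Clpp at 0.29 (adjusted p = 0.236), Afg3l2 at 0.30 (adjusted p = 0.289) and Spg7 at 0.17 (adjusted p = 0.634).

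Of 17 regulators of mitochondrial genes 0 were called by limma, with a median of -0.11. At an unadjusted p under 0.05, 4 were higher and 0 lower, against 9.03% and 6.07% of all genes. Ppargc1a, the coactivator PGC-1alpha, was at 8.34, 8.44, 8.22, 8.82 and 7.90 on OVE26 arrays, against 6.35, 8.34, 5.99 and 7.60 (difference 1.28, SE 0.44, adjusted p = 0.205). FVB 3 and FVB 1 were lowest, as for the members' medians, and FVB 2 lay inside the OVE26 range, but OVE26 4 had the highest Ppargc1a and the lowest Nduf median of its group. The oestrogen-related receptor genes Esrrb and Esrrg differed by 1.44 (SE 0.39, adjusted p = 0.120) and 1.00 (SE 0.35, adjusted p = 0.208). Esrrb was dim in FVB, at a mean of 3.99, with FVB 3 at 3.14, below the 25th percentile of array values (3.31). The related gene Esrra was also dim, at a mean of 4.53 in FVB and 4.84 in OVE26, and differed by 0.31 (SE 0.20; limma, adjusted p = 0.517). Ppargc1b and Pprc1, listed with Ppargc1a, differed by -0.39 (SE 0.36; limma, adjusted p = 0.679) and -0.40 (SE 0.18; limma, adjusted p = 0.332). Polg2, a subunit of the mitochondrial DNA polymerase, differed by 0.66 (SE 0.20, adjusted p = 0.150). Nrf1 differed by -0.32, Gabpa by -0.23, Yy1 by -0.16 and Tfam, which packages mitochondrial DNA, by -0.17, and none of these passed.

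Markers of the distal nephron were higher along with the members, and those of the proximal tubule were not. The score of 22 loop, collecting duct and distal tubule markers (mean centred log2 intensity) ran from 0.16 to 1.47 in OVE26 and from -1.30 to -0.06 in FVB arrays. All 22 differences were above 0 (52.6% of all genes) and 3 genes were called higher (0.473% of all genes). These were Fxyd4, Atp6v0d2 and Slc26a4, which passed 9, 3 and 2 times in 9 when single arrays were left out. Fxyd4, an ion transport regulator, differed by 2.40 (SE 0.28, adjusted p = 0.00978), Atp6v0d2, a proton pump subunit, by 2.88 (adjusted p = 0.0290) and Slc26a4, the anion exchanger pendrin, by 2.14 (adjusted p = 0.0349). The lowest arrays of the score were FVB 3 and FVB 1 and the highest OVE26 2, as for the members, but OVE26 1, second by its Nduf median, had the lowest score of its group. The markers' summed linear intensity was 6004 to 13488 in OVE26 and 2381 to 9318 in FVB arrays. With this score as a covariate the members' median was 0.01, 20 of 36 differences were above 0 (50.1% of all genes) and 0 were higher at an unadjusted p under 0.05 (5.33% of all genes), and limma called 0 of all genes. Standard errors grew at the same time, from a median of 0.11 to 0.17.

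The macrophage score of 19 genes ran from -0.32 to 0.92 in OVE26 and from -0.57 to -0.19 in FVB arrays. Its summed intensity was 893 to 3464 against 962 to 1332, and 16 of 19 differences were above 0. At an unadjusted p under 0.05, 8 were higher and 1 lower, against 9.03% and 6.07% of all genes. The smallest p were those of Ctss (2.61, adjusted p = 0.0711), Tyrobp (1.42, adjusted p = 0.0805) and C1qb (2.30, adjusted p = 0.0828), while Adgre1, C1qc and Itgam were below the 25th percentile of array values in both groups. The podocyte score of 17 genes ran from -0.39 to 0.08 in OVE26 and from 0.05 to 0.33 in FVB arrays. Summed podocyte marker intensity was 40402 to 51710 against 49058 to 55665. Of the 17 podocyte markers 16 were below 0 in difference. At an unadjusted p under 0.05, 7 of them were lower (6.07% of all genes). In 5 every OVE26 array lay below every FVB array (2.62% of all genes). The list was led by the transcription factor genes Foxc2 (-0.78, adjusted p = 0.0828) and Lmx1b (-0.65, adjusted p = 0.118) and by Kirrel (-0.56, adjusted p = 0.139). Limma called 0 of the macrophage and podocyte markers. The proximal tubule score of 20 genes did not follow the members: it was -1.95 on OVE26 2, the array with the highest Nduf median, and -0.33 to 0.71 on the other 8. Of its genes 11 had a difference above 0 and 0 were called, with the smallest p for Cyp4b1 (-0.997, adjusted p = 0.232), Acsm2 (-0.70, adjusted p = 0.461) and Aqp1 (0.45, adjusted p = 0.468). Endothelial, mesangial and red cell marker scores overlapped between groups, and limma called 0 of their genes. Endothelial Plvap differed by 1.25 (adjusted p = 0.151), Kdr by -0.46 (adjusted p = 0.490) and Ehd3 by -0.55 (adjusted p = 0.511). Mesangial Rgs5 differed by 1.60 (adjusted p = 0.223), Tagln by 0.67 (adjusted p = 0.297) and Thy1 by 0.24 (adjusted p = 0.414). Of 6 red cell genes listed, 3 were measured. Alas2 differed by -0.50 (adjusted p = 0.292), Slc4a1 by 1.38 (adjusted p = 0.425) and Hba-a1 by 0.16 (adjusted p = 0.590). Slc4a1 is also on the list of loop, collecting duct and distal tubule markers. Hba-a1 was below the 25th percentile of array values in both groups. The members' median was 0.23 with the macrophage score, 0.21 with the podocyte score and 0.18 with the proximal score as a covariate, and 3, 3 and 12 of 36 members were higher at an unadjusted p under 0.05, against 9.19%, 6.04% and 10.2% of all genes. The part of these cells in the result was not tested.

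**Figure D5:**
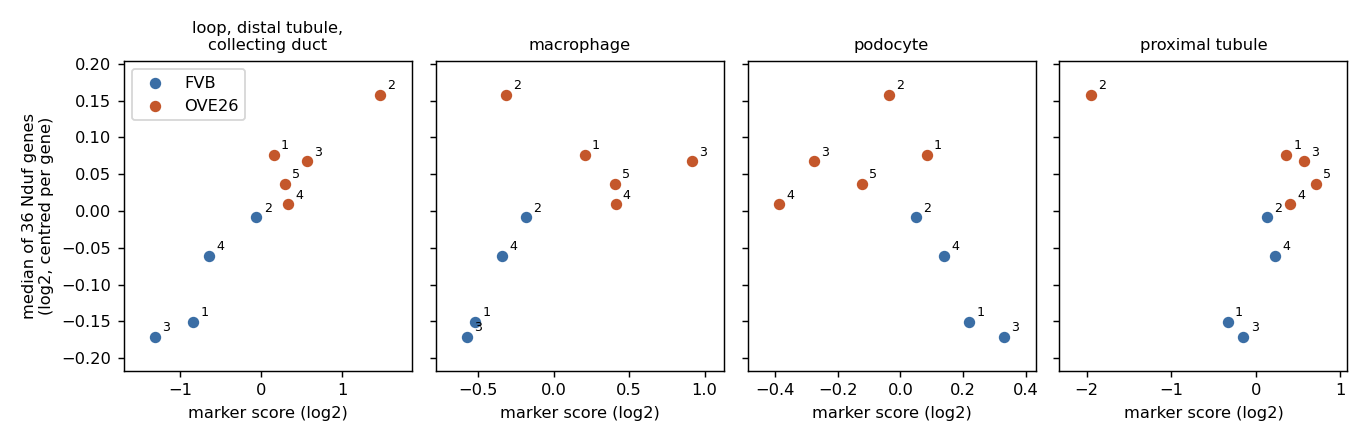
Median of the 36 Nduf genes on each array (vertical axis, log2, centred per gene) against the score of each of 4 marker lists (horizontal axes, log2, centred per gene), with numbers giving the mouse and colours the group. FVB 3 and FVB 1 have the lowest loop, collecting duct and distal tubule scores and Nduf medians and OVE26 2 the highest of both, while OVE26 1 has the lowest of these scores in its group and the second-highest Nduf median. In the proximal tubule plot OVE26 2 has the lowest proximal tubule score and the highest Nduf median.

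On the arrays where Xist lay below the Y-linked genes (2 OVE26 and 3 FVB), the members' median was 0.18. There 31 of 36 differences were above 0 (50.3% of all genes) and 19 members had no overlap (15.2% of all genes). With the Xist signal as a covariate on all 9 arrays the median was 0.16 and 31 of 36 differences were above 0 (52.9% of all genes). Limma called 0 members in either.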

How the data were processed

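Each sort's amplified, biotin-labelled RNA was read on 1 array. The authors deposited probe set intensities, linear by the range of their values, and RMA and Partek are named per the submitters' processing notes, with settings not given in the sources used here. Of 45101 probe sets, 64 controls were left out. The platform annotation gave 34945 a single symbol, 932 several and 9160 none. log2 was taken here, and each gene took the probe set with the highest mean over the 9 arrays, with no filter on dim genes (18193 genes). Groups were compared with limma 3.58.1 in R 4.3.3 (lmFit, eBayes, 2-sided, with genotype as sole term, Benjamini-Hochberg over all genes, threshold 0.05; tested on simulated data). The labels name separate mice, so errors rest on the spread between arrays, which also holds differences between sorts and amplifications. The labels give no batch. Values on every array are given for the 10 members with the smallest p, further members without overlap, Ndufa4, Ndufa4l2 and the most variable member. In other lists the 3 genes with the smallest p and any gene called are named, and regulators named beyond these were chosen after their values were seen. Members and lists were chosen with earlier results of these data known. Alternatives covered a filter on dim genes, probe set means, scaling, variance models, array weights, a replicate block, covariates for sex and marker scores and leaving out arrays. Shares among bright genes and the arrays with low Xist are alternatives added later, with the data in view.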

Additional observations from a re-analysis of the deposited data

Results flagged for a closer look

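In 4 of 74 groups of arrays tested (36 members and their median, in each genotype), the highest or lowest array stood far from the others, where chance gives about 1 in 20. OVE26 2 was the highest of its group for Ndufv3 (11.05, the next at 10.40) and Ndufv1 (10.69, the next at 10.28). OVE26 5 was the highest for Ndufab1 (9.732, the next at 9.499), and OVE26 4 the lowest for Ndufc1 (11.53, the next at 11.85).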

How the results depend on the processing

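No member was called by limma under any of the 25 alternatives. From 2 to 15 members were higher at an unadjusted p under 0.05 (4.53% to 11.3% of all genes), except in the fit with the loop, collecting duct and distal tubule covariate (0). Across the fits without 1 array the median difference ranged from 0.16 to 0.21 and members without overlap from 10 to 16 (4.46% to 6.63% of all genes). Members with a difference above 0 ranged from 31 to 35 (49.8% to 54.7% of all genes). Members higher at an unadjusted p under 0.05 ranged from 6 to 12 (6.79% to 9.70% of all genes). Centring on ribosomal protein genes moved the median to 0.037 (-0.13 over all genes), members without overlap to 1 (1.56% of all genes), differences above 0 to 21 (28.4%) and members at an unadjusted p under 0.05 to 2 (4.53%). The loop, collecting duct and distal tubule covariate moved the median to 0.014, differences above 0 to 20 (50.1% of all genes) and members at an unadjusted p under 0.05 to 0 (5.33%). That last count was 3 with the macrophage covariate (9.19%) and 3 with the podocyte covariate (6.04%). On the arrays of low Xist, chosen after seeing the data, it was 2 (7.70%), with 19 members without overlap (15.2%). Mouse numbers 1 to 4 occur in both groups, but same-numbered arrays did not deviate together (r from -0.21 to 0.13 over genes, which are not independent replicates). With the number as a replicate block 6 members had an unadjusted p under 0.05 (7.74%) and the median was 0.17. Among all genes limma called 86 higher and 24 lower, and 8 higher and 0 lower without FVB 3, 285 and 82 without FVB 2, and 0 and 0 with the loop, collecting duct and distal tubule covariate. Under the loop, collecting duct and distal tubule covariate, single differences that changed sign became -0.00141 for Ndufb8, -0.0534 for Ndufb6, -0.11 for Ndufa8, -0.29 for Ndufv3, -0.10 for Ndufv2, -0.00906 for Ndufb5, -0.0108 for Ndufc1, -0.00516 for Ndufa1, -0.0758 for Ndufb7, -0.0236 for Ndufa12, -0.24 for Ndufv1, -0.23 for Ndufs7, -0.34 for Ndufs8, 0.38 for Ndufb4, -0.23 for Ndufa4l2, -0.054 for Ndufb10, -0.13 for Ndufs5 and 0.0072 for Ndufs1. With arrays centred on ribosomal protein genes, single differences that changed sign became -0.00772 for Ndufb5, -0.00946 for Ndufa1, -0.0119 for Ndufs4, -0.0364 for Ndufa13, -0.0431 for Ndufb7, -0.0285 for Ndufa10, -0.043 for Ndufa12, -0.0417 for Ndufv1, -0.0637 for Ndufs8, -0.10 for Ndufa4l2, -0.13 for Ndufa9, -0.14 for Ndufb10 and -0.14 for Ndufs5. With the macrophage covariate they became -0.00602 for Ndufb9, -0.10 for Ndufa9, -0.0387 for Ndufb10 and 0.0241 for Ndufs1. With the podocyte covariate they became -0.11 for Ndufs8, 0.0369 for Ndufb4, -0.0508 for Ndufa4l2, -0.0917 for Ndufa9 and 0.14 for Ndufs1. On the arrays of low Xist they became -0.0176 for Ndufs7, -0.0581 for Ndufs8, 0.72 for Ndufb4, -0.0253 for Ndufb10 and -0.0779 for Ndufs5. With the Xist covariate they became -0.038 for Ndufs8, -0.00564 for Ndufa9 and -0.0366 for Ndufb10. With array weights they became -0.0588 for Ndufs5 and 0.0431 for Ndufs1. With quantile normalization they became -0.054 for Ndufa4l2 and -0.0823 for Ndufs5. With probe set means they became -0.0362 for Ndufs4 and -0.0423 for Ndufa10. With centring on array medians the difference of Ndufs1 became 0.00262. Without OVE26 2 and OVE26 4 together they became 0.14 for Ndufb4, -0.10 for Ndufs5 and 0.0731 for Ndufs1. With the replicate block the difference of Ndufb10 became -0.0231. When 1 array was left out, the differences that changed sign in some fit ranged from -0.0446 to 0.11 for Ndufa4l2, -0.00259 to 0.0516 for Ndufa9, -0.0231 to 0.0467 for Ndufb10, -0.68 to 0.0157 for Ndufb4, -0.039 to 0.0482 for Ndufs1 and -0.0758 to 0.071 for Ndufs5. The number of arrays limits precision: the median standard error of a member was 0.11, about the size of many member differences. Ndufb4, read from a dim single-symbol probe set, had one of 0.47. For each of these moves the cause was not tested.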
